A study of Mus musculus with 225 samples.

Results

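The cells described here are autopod cells of the mouse forelimb, divided by whether reads of Hoxa13 were found in them. Of 76 autopod cells that passed the authors' quality filter, 45 had 5 or more reads of Hoxa13 and are called Hoxa13-positive, and the other 31 are called Hoxa13-negative. The whole series holds 225 captured cells, of which 199 were retained, 76 from the autopod and the rest from the zeugopod. The autopod is the distal part of the limb, from which the hand and digits form, and the zeugopod is the forearm. All cells came from embryos at embryonic day 12.5 that were heterozygous for Hoxd11::GFP on a mixed C57Bl6CBAF1 background. In this line a tau-GFP sequence sits in the reading frame of Hoxd11 and inactivates that copy of the gene, so every cell of both groups carries 1 working copy of Hoxd11, and reads of the 2 copies cannot be told apart. Forelimbs of several littermates were pooled and dissociated, and the cells with the brightest GFP were sorted and loaded on the Fluidigm C1, an instrument that isolates single cells in separate chambers and makes cDNA from the polyadenylated RNA of each. The sort kept cells in which Hoxd11 had been transcribed, and the shares below are shares of such cells, not of the whole autopod. The labels give no embryo for a cell, so the autopod counts as 1 pooled sample. Cells cannot stand in for replicates, and the differences below are therefore descriptions without p-values or standard errors. The 2 groups were made from the Hoxa13 reads themselves, and the difference in Hoxa13 is therefore a description of the rule.

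Hoxa13 and Hoxd13 encode the HOX proteins used at the distal end of the limb, where they act together in forming the digits and in restricting more proximal programmes. Hoxa13 lies at the end of the HoxA cluster, and the expression of both genes in the digit territory depends on distant enhancers. Msx1, Msx2, Lhx2, Lhx9, Dach1 and Prrx2 encode transcription factors that are active in the distal limb mesenchyme, some of them with overlapping roles. Cells without detected reads of a gene need not lack its RNA, since single-cell libraries miss part of the transcripts.

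The start regions of Hoxa13, which sets the groups, and of Dach1 and Msx1, the genes of the distal list described below with the largest differences, are shown here, each read on the strand of the gene. Each window covers 250 bases before and 50 bases after the transcription start in RefSeq on build GRCm38.p6. The windows lie at chr6:52260831-52261130 on the minus strand for Hoxa13, at chr14:98169716-98170015 on the minus strand for Dach1 and at chr5:37824536-37824835 on the minus strand for Msx1. Capitals mark CCAAT or its reverse complement ATTGG, the CCAAT box of many promoters.
Hoxa13: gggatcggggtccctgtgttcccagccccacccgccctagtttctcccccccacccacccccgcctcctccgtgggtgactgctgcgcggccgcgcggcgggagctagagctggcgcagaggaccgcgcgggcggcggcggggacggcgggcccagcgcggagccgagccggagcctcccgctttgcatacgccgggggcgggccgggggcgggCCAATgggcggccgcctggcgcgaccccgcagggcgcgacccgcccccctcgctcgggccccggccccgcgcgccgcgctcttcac
Dach1: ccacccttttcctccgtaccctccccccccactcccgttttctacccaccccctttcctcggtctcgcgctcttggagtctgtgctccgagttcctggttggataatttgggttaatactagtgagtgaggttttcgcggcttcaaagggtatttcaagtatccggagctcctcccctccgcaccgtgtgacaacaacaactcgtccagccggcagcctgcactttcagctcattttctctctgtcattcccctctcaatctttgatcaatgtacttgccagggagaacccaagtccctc
Msx1: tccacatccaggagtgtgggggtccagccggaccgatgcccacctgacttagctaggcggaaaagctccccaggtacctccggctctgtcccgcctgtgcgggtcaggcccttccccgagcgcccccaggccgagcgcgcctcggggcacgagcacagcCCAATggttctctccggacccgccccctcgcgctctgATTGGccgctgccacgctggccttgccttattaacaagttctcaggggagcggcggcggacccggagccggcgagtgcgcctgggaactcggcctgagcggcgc
The Hoxa13 window was 81% G and C, that of Msx1 70% and that of Dach1 54%. CCAAT was found on either strand in the windows of Hoxa13 and Msx1 and not in that of Dach1, and in 37.4% of all 32851 promoter windows of the same length. CAATAAA, or TTTATTG on the other strand, the AT-rich core bound by HOX13 proteins, was in 4.60% of all windows. It was in 0 of 9 windows looked at, the first listed for each gene, those of Hoxa13, Dach1, Msx1, Msx2, Lhx9, Lhx2, Prrx2, Hoxa10 and Smad5, which says only that these letters are not in those 300 bases.

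Hoxa13 (ENSMUSG00000038203, chromosome 6, 52257694 to 52260880 on the minus strand of GRCm38) had between 5 and 2849 reads in the positive cells, with a median of 79. The normalized values, which are read counts scaled by spike-in RNA and divided by gene length, ran from 1.21 to 1510 with a median of 41.6. In the negative cells 26 had 0 reads and 5 had 1, 1, 1, 2 and 3 reads, and the 6 positive cells nearest to the threshold had 5, 5, 7, 10, 10 and 10 reads. Few cells thus sat beside the threshold, and 21 positive cells had more than 100 reads and 6 more than 1000. The positive share was 59.2% of 76 cells (exact binomial 95% interval 47.3 to 70.4%). In run NXT0072 it was 39 of 59 cells (66.1%, interval 52.6 to 77.9%), and in run NXT0143 6 of 17 (35.3%, interval 14.2 to 61.7%). As a background, 5 or more reads were found in 3 of the retained zeugopod cells (2.44%, interval 0.506 to 6.96%), a tissue in which the gene is largely silent, and 1 or more reads in 14 of them (11.4%). The median depth was 2830024.5 reads on genes in the autopod cells and 3233736 in the zeugopod cells. Molecular identifiers were not used in these libraries, and the intervals here and below cover counting error only.

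The number of genes detected stands beside all the comparisons below, since 5 reads of a gene are reached more easily in a cell with a rich library. Genes with 1 or more reads numbered from 1992 to 6162 in the positive cells, with a median of 3890, and from 2151 to 5760 in the negative cells, with a median of 3455. In NXT0072 the medians were 3709 and 3294, and in NXT0143 they were 4251 and 3566. The ranges of the groups overlapped, and the median was higher in the positive cells in both runs. Reads on genes had medians of 3082311 and 2548468, and within NXT0072 of 3076199 and 3049398.5. The size factors from the spike-in RNA, by which counts are divided, had medians of 0.949 and 0.928 over all cells, and of 0.949 and 1.15 in NXT0072. After random thinning of every cell to a depth of 500000 reads, which left out 2 shallower cells of each group, the medians of genes detected were 2896 and 2703. At this depth 42 of 43 positive cells (97.7%) and 2 of 29 negative cells (6.90%) still had a read of Hoxa13. Over the 76 cells the rank correlation of Hoxa13, in reads per 1000000 reads on genes (CPM), with the genes detected was 0.0540, a description over cells that share their library preparation. The part of genes detected in the differences below was not tested beyond the values given with thinning and within 3 classes of cells of like numbers of genes detected.

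**Figure D1:**
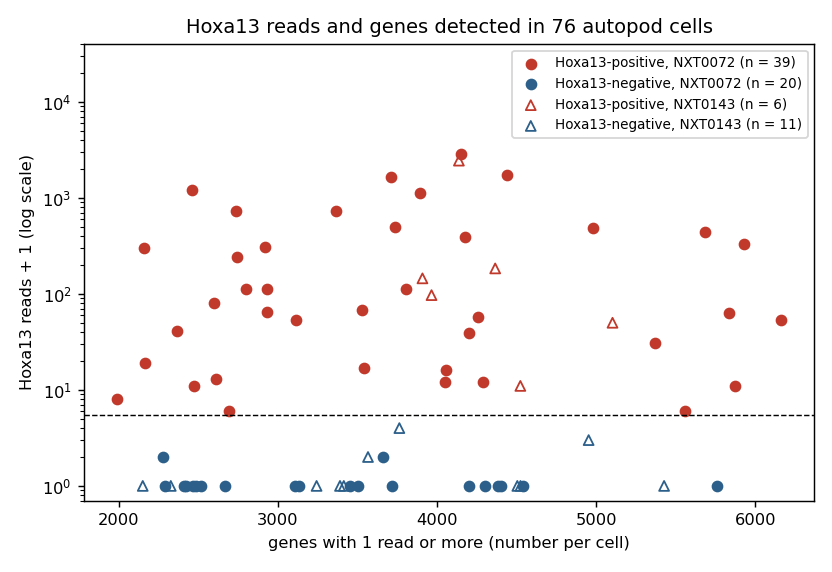
Each point is 1 autopod cell, with the number of genes detected on the horizontal axis and the Hoxa13 reads plus 1 on a logarithmic vertical axis. Filled circles are cells of NXT0072, open triangles cells of NXT0143, red is Hoxa13-positive and blue Hoxa13-negative, and the dashed line marks the threshold of 5 reads. Both groups span nearly the whole range of genes detected, and the 5 negative cells with 1 to 3 reads lie below the line.

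Across genes, the positive cells had higher means of the distal limb genes Dach1, Msx1, Lhx9, Msx2 and Prrx2 and of Hoxa10, Dlx5 and Smad5, whereas the HoxD genes and the cartilage genes differed less over all cells. These are members of gene lists, and Trappc1, Nme4, Ctbp1 and Dnajc5, which are in no list, differed by more than any of them. A gene was compared if 5 or more reads of it were present in 25% or more of either group, and its difference is the mean of log2(normalized value + 1) in positive minus negative cells. The added 1 makes this difference understate that of genes with low values. Besides Hoxa13 itself 4648 genes were compared, and their median difference was 0.32. A difference of 2 or more, which is 4-fold on this scale, was found in 61 genes (1.31%) on the higher side and in 11 (0.237%) on the lower side. In NXT0072 alone 95 genes (2.04%) were higher and 17 (0.366%) lower by this amount, and 42 of the 61 and 6 of the 11 genes were among them. Of the 61 genes, 43 passed the filter in both groups and 18 in the positive cells alone, and of the 11 genes 4 passed in both groups and 7 in the negative cells alone. A gene that passed in 1 group alone had to differ to some extent. The split between higher and lower genes depended on the centring of all genes. After the median of 0.32 was subtracted 30 genes were higher and 23 lower, with log2(CPM + 1) 49 were higher (1.05%) and 21 lower (0.452%), and in thinned cells 51 were higher and 25 lower, against 61 and 11 without these changes. The higher genes thus made up 84.7% of those past the difference as first computed, 56.6% after centring, 70% in CPM and 67.1% in thinned cells.

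**Figure D2:**
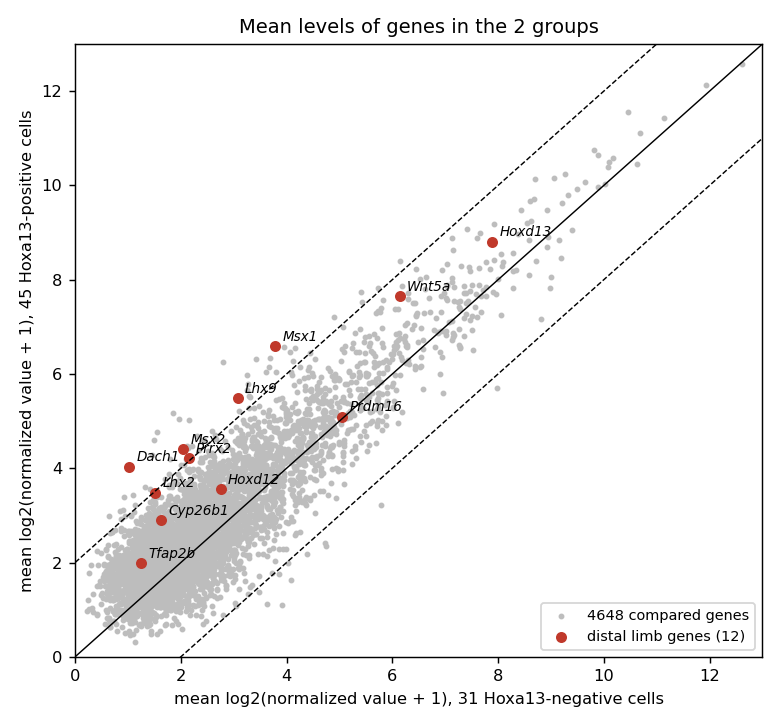
Each grey point is a compared gene, placed by its mean log2(normalized value + 1) in the 31 Hoxa13-negative cells (horizontal axis) and in the 45 Hoxa13-positive cells (vertical axis). The solid line marks equal means, the dashed lines a difference of 2, and red points are the 12 compared distal limb genes, of which 5 lie above the upper dashed line.

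Among the distal limb genes, 12 of 14 listed genes were compared, all but Sall1 and Sall3, and 5 of them were past the difference of 2 against 1.31% of all genes. In NXT0072 alone 3 of the 12 were past it against 2.04%. The median of the 12 was 1.74 over all cells and 1.34 in NXT0072, where the median of all genes was 0.34. The runs held different shares of positive cells. In a mean of the differences within each run, weighted by the cells of both groups, 75 of all genes were higher (1.61%) and 8 lower (0.172%), and 5 of the 12 distal genes were past 2, with a median of 1.41. Several genes of this list were picked by the study on these same cells, between autopod and zeugopod, and Dach1, Prrx2 and Tfap2b passed the filter only in the positive cells, so the counts describe the list and give no independent support.

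Dach1 (ENSMUSG00000055639, chromosome 14, 97786853 to 98169765), a transcriptional cofactor of the distal limb, had normalized values from 0.136 to 2231 in the positive cells with a median of 10.2, and from 0.136 to 165 in the negative cells with a median of 0.136, the value of a gene with 0 reads. The median negative cell was thus at the floor, and among the autopod cells all values above 165 were in positive cells. At 5 or more reads it was found in 31 of 45 positive cells (68.9%, interval 53.4 to 81.8%), 5 of 31 negative cells (16.1%, interval 5.45 to 33.7%) and 15 zeugopod cells (12.2%). Its difference was 3.02, and it was 2.79 in NXT0072, 3.32 in NXT0143, 3.65 in thinned cells, 2.64 within 3 classes of genes detected in NXT0072 and 2.91 in the weighted mean within runs.

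Msx1 (ENSMUSG00000048450, chromosome 5, 37820485 to 37824583), a homeobox gene of the distal mesenchyme and a target of BMP signals, ranged from 0.323 to 14667 in the positive cells with a median of 353, and from 0.323 to 4371 in the negative cells with a median of 0.645. Both groups held cells at the floor and cells with high values, in different proportions. It had 5 or more reads in 32 of 45 positive cells (71.1%, interval 55.7 to 83.6%), in 14 of 31 negative cells (45.2%, interval 27.3 to 63.97%) and in 2 zeugopod cells (1.63%). The difference was 2.81 over all cells, 2.33 in NXT0072 and 3.53 in NXT0143. Without the cells that had 5 or more reads of 3 or more of the cartilage genes Sox9, Col2a1, Acan, Col9a1 and Matn1 it was 1.13, under the difference of 2. These cells were 19 of 45 positive cells (42.2%, interval 27.7 to 57.8%) and 16 of 31 negative cells (51.6%, interval 33.1 to 69.8%).

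Msx2, a relative of Msx1 with a role in interdigital tissue, ranged from 0.305 to 3646 with a median of 7.92 in the positive cells and from 0.305 to 945 with a median of 0.305 in the negative cells. It was found in 26 of 45 positive and 9 of 31 negative cells, with a difference of 2.37, which was 1.78 in NXT0072 and 4.49 in NXT0143. In NXT0143 the values rest on 6 positive and 11 negative cells. The LIM-homeobox genes Lhx9 and Lhx2, which take part in limb outgrowth, had differences of 2.41 and 1.97. Lhx9 ranged from 0.105 to 2138 with a median of 141 in the positive cells and from 0.105 to 1324 with a median of 0.842 in the negative cells, and it was found in 31 and 16 cells. For Lhx2 the range was 0.227 to 4531 with a median of 2.04 in the positive cells and 0.227 to 423 with a median of 0.227 in the negative cells, and 24 and 9 cells had it. Both genes thus were at or near the floor in the median negative cell. Their differences were 2.10 and 1.85 in NXT0072, and in the weighted mean within runs both were 2.11.

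Prrx2, a homeobox gene of limb mesenchyme, had 5 or more reads in 20 of 45 positive cells, all of them in NXT0072, and in 7 of 31 negative cells. Its difference was 2.07 over all cells and 1.92 in NXT0072, and 0.09 in NXT0143, in which 0 of 6 positive cells had 5 reads. Its weighted mean within runs was 1.503, under the difference of 2. Wnt5a, the ligand that drives outgrowth of the distal limb, was found in most cells of both groups, 42 of 45 and 28 of 31, and its difference of 1.51 over all cells was 0.21 in NXT0072 and 5.06 in NXT0143. Cyp26b1, which breaks down retinoic acid, gave 1.27 over all cells and 0.86 in NXT0072, Tfap2b gave 0.73, and Prdm16 gave 0.04 with 42 and 28 cells. Thus the list did not move as a block, and Wnt5a differed by far more in the smaller run than in NXT0072.

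**Figure D3:**
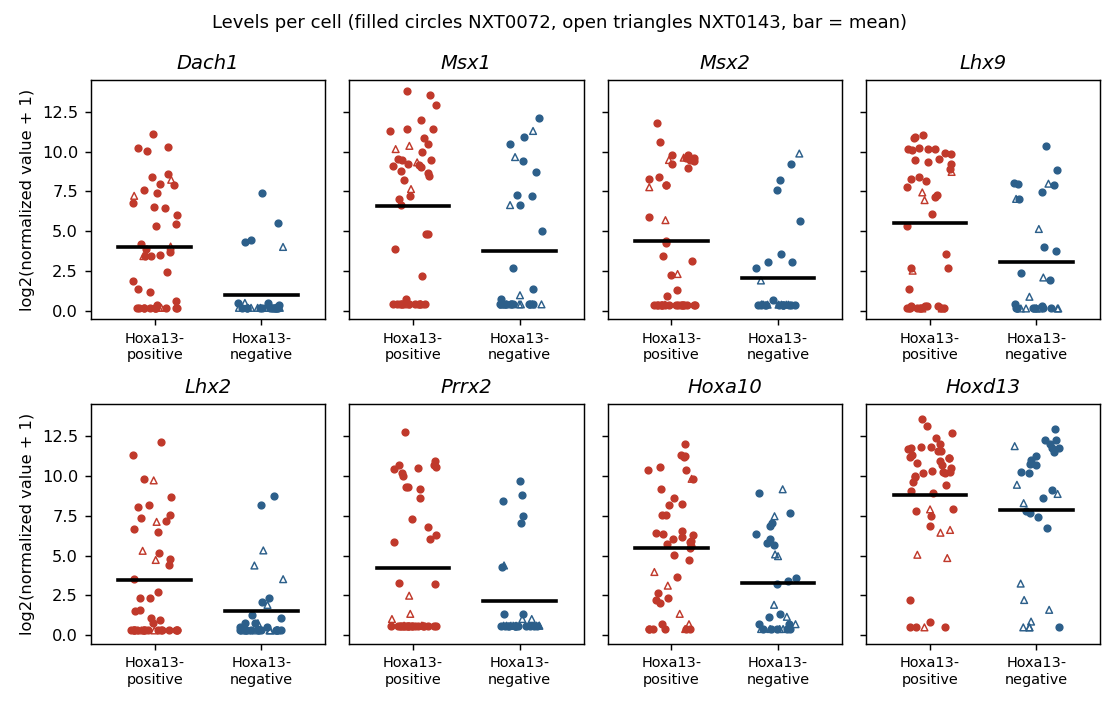
Each panel shows log2(normalized value + 1) of 1 gene in every autopod cell, with 45 Hoxa13-positive cells on the left and 31 Hoxa13-negative cells on the right. Filled circles are NXT0072, open triangles NXT0143 and the bar is the mean of the group. For Dach1 the median negative cell lies at the floor, whereas Hoxd13 had 5 or more reads in 40 of 45 and 25 of 31 cells.

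Counted together, 4 or more of the 6 genes Dach1, Msx1, Msx2, Lhx2, Lhx9 and Prrx2 had 5 or more reads in 25 of 45 positive cells (55.6%, interval 39.997 to 70.4%) and in 7 of 31 negative cells (22.6%, interval 9.59 to 41.1%). In NXT0072 the counts were 22 of 39 and 5 of 20 cells. None of the 6 was found in 4 positive and 8 negative cells. In the zeugopod 1 cell (0.813%) had 4 or more and 64 cells (52.03%) had none. The negative cells thus lay between the positive cells and the zeugopod cells in both counts. The 6 genes were grouped after their values had been seen, so these counts give no independent support.

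**Figure D4:**
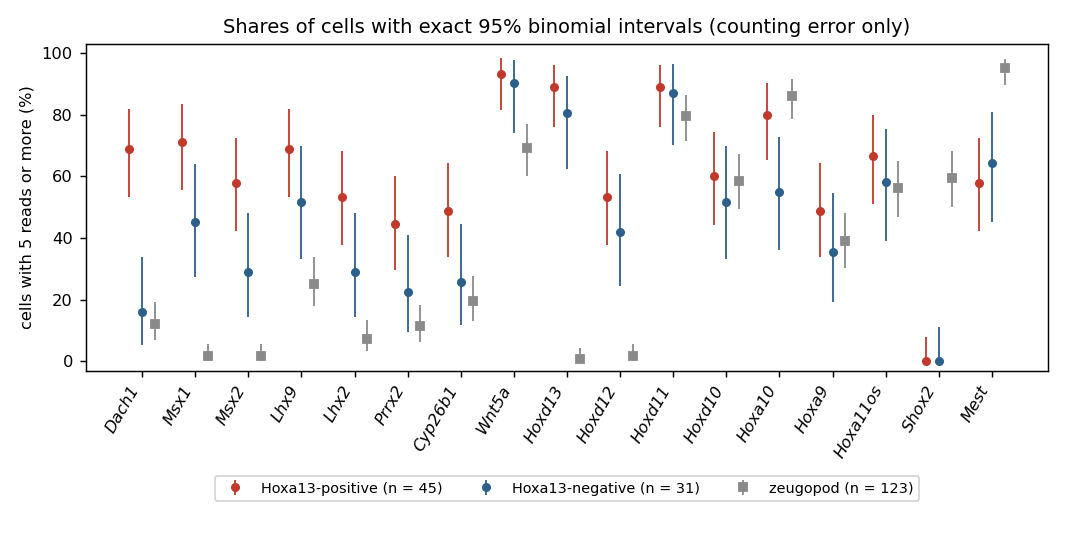
Points give the percentage of cells with 5 or more reads of each gene, in red for 45 Hoxa13-positive autopod cells, in blue for 31 Hoxa13-negative autopod cells and in grey for zeugopod cells, and bars are exact 95% binomial intervals that cover counting error only. The shares of the 2 autopod groups were 68.9% and 16.1% for Dach1, which passed the filter only in the positive cells, and 88.9% and 80.6% for Hoxd13. Cells of 1 pooled sample are not replicates, so the intervals do not test a difference.

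Over all cells the HoxD genes differed less between the groups. Hoxd13 (ENSMUSG00000001819, chromosome 2, 74668310 to 74671599), the partner of Hoxa13 in digit formation, ranged from 0.402 to 12319 in the positive cells with a median of 1187, and from 0.402 to 7967 in the negative cells with a median of 557. It was found in 40 of 45 positive cells (88.9%, interval 75.9 to 96.3%) and in 25 of 31 negative cells (80.6%, interval 62.5 to 92.5%). Within NXT0072 these were 35 of 39 and 19 of 20 cells, and the difference of 0.92 over all cells was −0.48 there. Within NXT0143 they were 5 of 6 and 6 of 11 cells, with a difference of 0.87. The direction for Hoxd13 was thus opposite in the 2 runs, its weighted mean within runs was −0.17, and most of the 6 cells with neither gene, 5 of them, were in NXT0143.

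Of the 11 genes of the HoxD list 6 were compared. Over all cells 0 were past the difference of 2 in either direction, against 1.31% of all genes on the higher side. The median of the 6 was 0.86 over all cells and 0.33 in NXT0072, against 0.32 and 0.34 for all genes. In NXT0143, with its 6 positive cells, Hoxd12 at 2.74, Evx2 at 2.44 and Hoxd11 at 2.14 were past it, 3 of the 6, against 16.7% of all genes. Hoxd12 gave 0.80 over all cells and 0.23 in NXT0072, with 24 of 45 and 13 of 31 cells. Hoxd11, of which 1 copy is disrupted and on whose GFP the cells were sorted, gave 0.21 and −0.19, with 40 and 27 cells. Hoxd10 gave 0.75 and 0.85, with 27 and 16 cells. The 2 genes of the digit landscape outside the cluster proper, Evx2 and Lnp, gave 1.17 and 0.99 over all cells, and 0.79 and 0.43 in NXT0072. Hoxd1, Hoxd3, Hoxd4, Hoxd8 and Hoxd9 did not pass the filter, and Hoxd3 and Hoxd4 had 5 or more reads in 0 cells of either group.

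In the HoxA cluster, 3 of the 13 genes besides Hoxa13 were compared. Hoxa10 (ENSMUSG00000000938, chromosome 6, 52231197 to 52240854), a gene of the same cluster with a broader limb domain, ranged from 0.305 to 4066 in the positive cells with a median of 57.4, and from 0.305 to 575 in the negative cells with a median of 2.75. It was found in 36 of 45 positive cells (80%, interval 65.4 to 90.4%), 17 of 31 negative cells (54.8%, interval 36.03 to 72.7%) and 86.2% of zeugopod cells. Its difference was 2.20, with 2.33 in NXT0072, 0.31 in NXT0143 and 1.87 in the weighted mean within runs, and it was the only compared HoxA gene past 2 over all cells. The share of Hoxa10 in the zeugopod was thus above that in the negative autopod cells, whereas those of Dach1 and Msx1 were below it. Hoxa9 gave 0.74, with 22 and 11 cells, and 0.51 and −0.32 in the 2 runs. Hoxa11os, the antisense transcript of Hoxa11 that is made in the distal limb, gave 0.34 over all cells, with 30 and 18 cells. Its difference was larger within each run, at 1.09 in NXT0072 and 1.32 in NXT0143, and 1.14 in the weighted mean within runs. It overlaps Hoxa11 over part of its length in the annotation, and the kit does not keep the strand. Reads of the 2 genes in the shared stretch thus cannot be told apart. Hoxa11 itself, the zeugopod gene of the cluster, had 5 or more reads in 4 positive and 1 negative cell and did not pass the filter, nor did Hoxa2 to Hoxa7 and Evx1, which were found in 8 or fewer cells of either group. Hottip, a noncoding RNA from the end of the cluster, is in the counts only and had 5 or more reads in 3 positive and 1 negative cell.

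**Figure D5:**
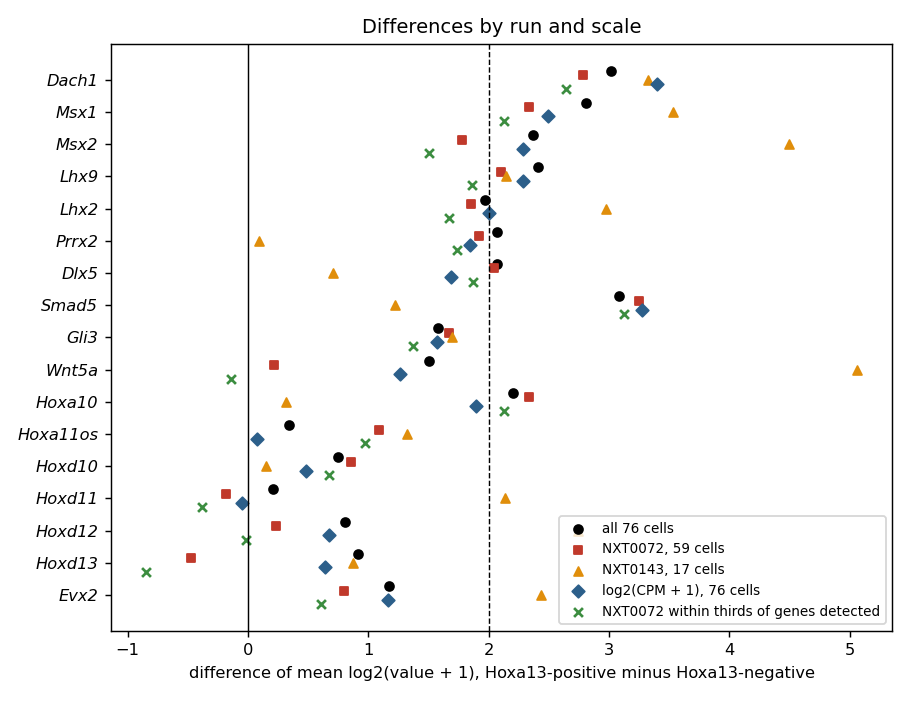
For each gene the points give the difference of mean log2(value + 1), Hoxa13-positive minus Hoxa13-negative, over all 76 cells (black circles), in NXT0072 (red squares), in NXT0143 (orange triangles), on the CPM scale (blue diamonds) and within 3 classes of genes detected in NXT0072 (green crosses). Dach1 and Msx1 lie above 2 in all of these and Smad5 in all but NXT0143, whereas Hoxd11 and Hoxd13 lie on both sides of 0.

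Genes that the field names as targets of the HOX13 proteins were compared for 6 of 10, and 0 were past the difference of 2 over all cells, against 1.31% of all genes. The highest was Gli3, the transcription factor of the hedgehog pathway that limits digit number, with values from 0.106 to 2156 and a median of 202 in the positive cells, and from 0.106 to 3346 with a median of 53.4 in the negative cells. It was found in 42 of 45 and 22 of 31 cells, and its difference was 1.58, with 1.67 in NXT0072 and 1.70 in NXT0143. The Notch ligand Jag1 gave 0.57, the Eph receptor Epha7 0.55 and Bmp7 0.62. The homeobox gene Evx2 gave 1.17 as above, and Aldh1a2, which makes retinoic acid, gave −0.56. For Jag1 and Epha7 the values in NXT0072 were −0.02 and 0.01, and for Bmp7 and Aldh1a2 0.85 and −1.10. In NXT0143, with its 6 positive cells, Jag1 gave 2.38, Epha7 4.08, Aldh1a2 2.11 and Bmp7 1.11. With Evx2, 4 of the 6 genes were past 2 there, against 16.7% of all genes, and Aldh1a2 had opposite directions in the 2 runs. Bmp2, Enpp2, Hand2 and Hoxa11 did not pass the filter.

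In the BMP pathway, 12 of 17 genes were compared and 1 was past 2, Smad5, against 1.31% of all genes. The median of the 12 was 0.19. Smad5 (ENSMUSG00000021540, chromosome 13, 56703010 to 56742377) encodes a transducer of BMP receptors. It ranged from 0.136 to 3001 with a median of 48.98 in the positive cells and from 0.136 to 677 with a median of 0.409 in the negative cells. Smad5 had 5 or more reads in 30 of 45 and 12 of 31 cells, with a difference of 3.08, which was 3.25 in NXT0072 and 1.22 in NXT0143. Its relatives Smad1 and Smad4 gave 0.29 and 0.05, and the receptor genes Bmpr1a, Bmpr1b and Bmpr2 gave −0.15, −0.11 and 0.66. The BMP-responsive inhibitors Id1, Id2 and Id3 were found in nearly all cells of both groups, at 0.19, 0.29 and −0.04, and Id4 gave −0.61. The remaining compared genes were Smad7 at 0.19 and Bmp7. Next to Smad5 the highest difference of the list was thus that of Bmpr2.

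Among the interdigit genes 4 of 6 were compared and 2 were past 2, Msx2 and Dlx5, against 1.31% of all genes. In NXT0072 1 of the 4 was past it, against 2.04%, and within 3 classes of genes detected in that run 0 were. On the CPM scale, in thinned cells and in the weighted mean within runs it was 1 each. Dlx5, a homeobox gene of the limb ectoderm and skeletal progenitors, had values from 0.701 to 10263 with a median of 1.40 in the positive cells and from 0.701 to 317 with a median of 0.701 in the negative cells. It had 5 or more reads in 21 of 45 and 5 of 31 cells, a difference of 2.07 (2.05 in NXT0072, 0.71 in NXT0143, 1.74 in the weighted mean within runs, 1.68 on the CPM scale). In thinned cells it was 1.29, and Dlx5 passed the filter only in the positive cells. The other compared genes of the list were Bmp7 at 0.62 and Aldh1a2 at −0.56. In NXT0072 they gave 0.85 and −1.10, and in NXT0143 1.11 and 2.11. Bmp7 passed the filter only in the positive cells and Aldh1a2 only in the negative cells, so each had to differ to some extent. Over all cells 3 of the 4 genes were above 0, against 3108 of all 4648 genes. In NXT0143, with its 6 positive cells, 4 of the 4 were above 0, against 2917 of all genes. Bmp4 and Rdh10 did not pass the filter.

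The hedgehog response genes had a median of 0.19 over 3 of 9 genes, and the FGF feedback genes −0.19 over 5 of 9. The Wnt and Notch genes had 0.55 over 9 of 13. Over all cells 0 genes of these lists were past 2, against 1.31% of all genes higher and 0.237% lower. In NXT0143 1 hedgehog, 1 FGF and 2 Wnt and Notch genes were higher by 2 or more, against 16.7% of all genes. There 1 hedgehog gene was lower, against 4.22%. The hedgehog receptor Ptch1 gave −1.14 over all cells, with −0.21 in NXT0072 and −3.08 in NXT0143. Dusp6, a feedback phosphatase of FGF signalling, gave 1.30, with 1.78 and −1.41 in the 2 runs. Notch2 gave 1.39 and was found in 44 of 45 and 26 of 31 cells, with 1.65 in NXT0072 and 1.78 in NXT0143. Of these 3 genes only Notch2 had the same direction by a like amount in both runs. Of the 6 Hox cofactors 2 were compared, with a median of 0.11 and 1 of them above 0, and Pbx2 gave −0.13. Meis1, Meis2 and Meis3 had 5 or more reads in 0 of the 76 cells, and a limit of 3 cells corresponds to a share of 3.95%. The 12 genes of cohesin and chromatin regulation were all compared and had a median of 0.33, close to that of all genes, with Rad21, a subunit of the cohesin ring, highest at 1.88 and Nipbl, the cohesin loader, at 0.95.

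The cartilage programme was found in both groups. Sox9, the regulator that commits cells to cartilage, had 5 or more reads in 43 of 45 positive and 29 of 31 negative cells, and its difference was −0.03. Of the 10 chondrogenic genes 7 were compared and 0 were past 2 in either direction over all cells, against 1.31% of all genes higher and 0.237% lower, with a median of −0.14. Col2a1, the main collagen of cartilage, gave −1.15 over all cells, but −0.03 in NXT0072 and −2.28 in NXT0143. In NXT0143 Col9a1 at −2.84, Col11a1 at −2.93 and Wwp2 at −2.51 were also lower by 2 or more, against 4.22% of all genes, and Sox6 was higher at 2.21, against 16.7%. In NXT0072 0 of the 7 were past 2, with Col9a1 at 1.19 and Wwp2 at 1.16, so that Col9a1 and Wwp2 had opposite directions in the 2 runs. The summed CPM of the chondrogenic genes ranged from 66.1 to 31752 in the positive cells, with a median of 3379, and from 16.2 to 33416 in the negative cells, with a median of 3321. Of the joint interzone genes 3 of 6 were compared. Gdf5, a BMP family ligand that marks forming joints, had 5 or more reads in 4 of 45 positive cells (8.89%, interval 2.48 to 21.2%) and in 10 of 31 negative cells (32.3%, interval 16.7 to 51.4%), and its difference was −1.42. In NXT0072 it was −0.92, with 2 of 39 and 5 of 20 cells. Sfrp2, a Wnt antagonist, gave −0.98 over all cells, and −1.60 and 2.38 in the 2 runs. Dcx gave 1.52. Gdf5 passed the filter only in the negative cells and Dcx only in the positive cells, so each had to differ to some extent. The directions of these 3 genes therefore give no independent description of the list.

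Genes of the proximal limb were rare in both groups, apart from Mest and Itm2a. Shox2, which is required for the proximal bones of the limb, had 5 or more reads in 0 of 45 positive and 0 of 31 negative cells, against 73 zeugopod cells (59.3%). A limit of 3 cells corresponds to 6.67% and 9.68%, and the exact 95% intervals reach 7.87% and 11.2%. Meox1 was found in 0 cells of either group, Meox2 in 5 positive and 0 negative cells, Irx3 in 1 and 0, and Irx5 in 2 and 0. Of the 10 proximal genes Mest and Itm2a alone were compared among these, at −0.88 and −0.27, with 0.11 and 0.74 in NXT0072 and −1.75 and −2.54 in NXT0143. The direction of both genes thus differed between the runs.

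Members of the tendon list had 5 or more reads in 3 of 45 positive cells (6.67%, interval 1.40 to 18.3%) and 8 of 31 negative cells (25.8%, interval 11.9 to 44.6%). The part of this in the differences was not tested. Members of other lists were found in fewer cells, those of muscle in 0 and 2, epithelium in 2 and 0, endothelium in 1 and 0, blood in 0 and 1, and macrophages in 1 and 2. Of the defining genes Tnmd, Myod1, Myog, Myf5, Krt14, Krt5, Cdh1, Krt8, Emcn and Cx3cr1 had 0 reads in the 76 cells. Other members had reads, 2009 of Scx, 580 of Mkx, 656 of Epcam and 177 of Actc1. The highest summed CPM of a list was 1442 for epithelium, in a positive cell, 407 for tendon and 98.3 for muscle, both in negative cells, and the median was 0 in both groups for each of these 6 lists. For blood, Hba-x alone was looked at and the other globin genes were not analysed here.

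Of 10 cell cycle genes 8 were compared, with a median of 0.77 over all cells and 0.73 in NXT0072. Over all cells 0 were past 2, against 1.31% of all genes on the higher side. In NXT0143 1 was higher by 2 or more, against 16.7%. Top2a, which untangles DNA in dividing cells, gave 1.83 with 28 of 45 and 17 of 31 cells. Ccna2 gave 1.64 with 19 and 6 cells, and Mcm2 gave −0.13. Of the 8 genes 3, Ccna2 among them, passed the filter only in the positive cells and 0 only in the negative cells. Of all 4648 genes these were 893 and 568. The 3 genes had to differ to some extent, so the median of the list gives no independent support. The 10 immediate early and heat shock genes, which respond to dissociation, had a median of 0.09, which was 0.68 in NXT0072, with Egr1 at −1.16 and Dusp1 at 1.30. Of the 8 common reference genes 5 were compared, with a median of −0.01 and differences from −0.31 for Ywhaz to 0.82 for Actb. Of the 5 sex-linked genes Xist gave 1.29 and the 4 Y-linked genes from −0.95 for Ddx3y to −0.22 for Uty, and the embryos were pooled. Both Xist and a Y-linked gene had 5 or more reads in 16 of 45 positive cells (35.6%, interval 21.9 to 51.2%) and 8 of 31 negative cells (25.8%, interval 11.9 to 44.6%). Without the cells that had both, Dach1 gave 3.53, Msx1 4.11, Smad5 3.21 and Hoxa10 2.96. No doublet caller was run.

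The genes with the largest differences were named among those that had 1 direction over all cells, in each run, in CPM, after thinning and within 3 classes of genes detected, as 60 of the 61 higher and 10 of the 11 lower genes did. Of all 4648 compared genes 2302 did so. These 6 settings use the same cells, and a gene picked for a large difference tends to keep its direction, so this gives no independent support. On the higher side the genes with the largest differences were Trappc1, Nme4, Ctbp1, Dnajc5, Smad5, Dach1, Arl6ip1, Kpna3, Ifitm3 and Msx1, from 3.46 to 2.81. Of these Trappc1, Nme4, Dach1 and Ifitm3 passed the filter in the positive cells alone, so they had to differ to some extent. Trappc1, a subunit of a complex that tethers transport vesicles, ranged from 0.895 to 8366 with a median of 111.01 in the positive cells and from 0.895 to 4881 with a median of 0.895 in the negative cells. It was found in 25 of 45 and 7 of 31 cells, and in 58 zeugopod cells (47.2%). Ctbp1, a corepressor of transcription, was found in 34 of 45 and 10 of 31 cells with a difference of 3.23, which was 2.80 in NXT0072. Ifitm3, an interferon-induced membrane protein, had 5 or more reads in 20 of 45 positive and 1 of 31 negative cells. Its values ran from 1.47 to 2297 with a median of 5.87 in the positive cells, and from 1.47 to 54.3 with a median of 1.47 in the negative cells. Smad5, Dach1 and Msx1 were the genes among these 10 that the lists contain. The other 7 were found in 22 to 58 zeugopod cells.

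On the lower side the genes were Fbxw5, Rqcd1, Rabepk, Nipsnap1, Sparc, Usp22, Pmpcb, Scaf8, Tbx15 and Hmox2, from −2.81 to −2.03. Of these Fbxw5, Rabepk, Nipsnap1, Scaf8, Tbx15 and Hmox2 passed the filter in the negative cells alone, so they had to differ to some extent. Tbx15, a T-box gene of limb mesenchyme and skeleton, ranged from 0.266 to 11591 with a median of 0.266 in the positive cells and from 0.266 to 4204 with a median of 2.13 in the negative cells. Reads were found in 11 of 45 and 16 of 31 cells, with a difference of −2.11, which was −2.51 in NXT0072. Sparc, a matrix protein of connective tissue and bone, was found in 14 of 45 and 17 of 31 cells, at −2.32 over all cells, −1.43 in NXT0072 and −1.62 in the weighted mean within runs. Usp22, a deubiquitinase that acts on histones, was found in most cells of both groups, 30 of 45 and 26 of 31. Its values ran from 0.204 to 8487 with a median of 20.2 in the positive cells and from 0.204 to 11913 with a median of 1252 in the negative cells, a difference of −2.29. Within the runs it was −1.53 in NXT0072 and −1.502 in NXT0143, both under 2 in size, and with positive cells set at a normalized Hoxa13 value of 5 it was −0.95. The highest cell of Tbx15 was a positive cell, so that the ranges of the groups overlapped. Rqcd1 overlaps Usp37 and Fbxw5 overlaps C8g in the annotation, and reads of overlapping genes can be uncertain.

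The positive cells varied among themselves in more than Hoxa13. Those 40 that also had Hoxd13 had a median of 4007.5 genes detected and a median of 4.5 of the 6 distal genes counted above, and 24 of them had 4 or more. The 5 positive cells without Hoxd13 had a median of 2694 genes detected and of 0 distal genes, and 1 had 4 or more. Among the negative cells the 25 with Hoxd13 had a median of 3501 genes and of 2 distal genes, and the 6 without had 3328.5 and 0.5. The number of distal genes was thus highest where both Hoxa13 and Hoxd13 were found, in the cells that also had the most genes detected, and with classes of 5 and 6 cells the part of either was not tested. The 6 genes had been grouped after their values in the Hoxa13 groups were seen, so a higher count in Hoxa13-positive cells follows from that choice. Within the 45 positive cells, rank correlations of Hoxa13 with the distal genes in CPM were 0.0866 for Dach1, 0.276 for Msx1, 0.253 for Msx2, 0.104 for Lhx9, 0.212 for Lhx2 and −0.107 for Prrx2. Those with Hoxd13 and Hoxd12 were 0.0532 and −0.243, and that with genes detected was −0.176. In the 39 positive cells of NXT0072 that with Hoxd12 was −0.409. These coefficients are descriptions over cells of 1 pooled sample and share the total reads of each cell.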

How the data were processed

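RNA of single E12.5 forelimb cells was sequenced in runs NXT0072, NXT0142 and NXT0143, the autopod cells in NXT0072 and NXT0143. The authors mapped reads with Bowtie2 (mm10, GRCm38; version not given in the sources used here) and deposited raw read counts per gene for 225 cells. They also deposited normalized values for 199 retained cells, 76 of the autopod and 123 of the zeugopod, a signal that equals the counts divided by spike-in size factors and rounded, plus 1, over gene length in kilobases, so that 0 reads give a floor above 0. The kit keeps no strand. The columns of the 92 spike-ins were not used.

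Hoxa13-positive cells had 5 or more raw reads. The members and gene lists were chosen with earlier results of these data known. Means of log2(normalized value + 1) were compared for genes with 5 or more reads in 25% or more of either group, with no test, because each tissue is 1 pooled sample. Shares have exact (Clopper-Pearson) 95% intervals, and a count of 0 was read as allowing 3 cells. HoxA and HoxD genes, list members past the difference of 2 or defining a list, and the 10 largest differences in each direction with 1 direction in 6 settings were named. Other named list members were chosen after their values were seen. Some list members are not reported here. Alternatives were CPM, other pseudocounts, thresholds and filters, centring, single runs, a mean within runs weighted by positive times negative over all cells of a run, thinning to 500000 reads, 3 classes of genes detected and the removal of chondrogenic cells. Overlapping genes were taken from GENCODE vM21. The comparison was tested on simulated data. No doublet caller was run, and 0 pairs of cells had identical counts. Python 3.11.15, numpy 2.4.6, pandas 2.3.3, scipy 1.17.1 and matplotlib 3.10.9 were used.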

Additional observations from a re-analysis of the deposited data

How the results depend on the processing

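Of the genes compared 1.31% were higher by 2 or more. This was 3.01% with a pseudocount of 0.1, 0.108% with 10, 0.645% after centring, 3.14% with positive cells set at a normalized Hoxa13 value of 5, 2.04% in NXT0072, 16.7% in NXT0143 with its 6 positive cells, 0.557% with no filter on low values, 2.96% with a filter of 50% of cells and 4.99% without chondrogenic cells. These filters change the number of genes tested, and 61 genes were past the difference with no filter as well. The lower genes, 0.237%, were in the same order 0.516%, 0%, 0.495%, 0.043%, 0.366%, 4.22%, 0.1005%, 0.515% and 0.775%. They were 0.452% in CPM, 0.129% with a threshold of 1 read, 0.538% in thinned cells, 0.452% in thinned cells with groups set again and 0.516% within 3 classes of genes detected in NXT0072. Of the distal limb genes 5 were past the difference, 1 with a pseudocount of 10, 3 in NXT0072, 2 within its 3 classes and 3 without chondrogenic cells. The difference in median genes detected per cell, 435, was 685 in NXT0143 and 193 in thinned cells, and the positive share of 59.2% was 35.3% in NXT0143. Removal of cells with Xist and a Y-linked gene, chosen after seeing the data like the settings for the distal list, gave 2.35% higher and 0.818% lower genes. Leaving out the cells with 1 to 4 reads of Hoxa13, also chosen after seeing the data, moved none of these values by over 1.5 times. The weighted mean of the differences within runs, also chosen after seeing the data, gave 1.61% higher and 0.172% lower genes and 5 distal genes, and lowered Prrx2, Dlx5 and Hoxa10 to under 2. The median gene difference, 0.32, was 0.59 with the normalized threshold, 0.13 with no filter on low values and 0 after centring, by construction. Of the named genes, 79 moved by more than this in NXT0143, 48 without chondrogenic cells, 32 in NXT0072 and 0 in CPM. Other causes were not tested. Depth limits all shares of cells. No paired analysis was possible because the cells of 1 pooled sample carry no number shared between the groups.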
